A study of Rattus norvegicus with 3 samples.

Results

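miR-146a, miR-146b, miR-155 and miR-147 are known as NF-kB feedback miRNAs, and were followed here as 6 mature forms in small RNA libraries labelled as extracellular vesicles (EVs, lipid-bound particles shed by cells) of primary rat astrocytes. The members were chosen by name: miR-146a-5p, miR-146a-3p, miR-146b-5p, miR-146b-3p, miR-155-5p and miR-147, 6 of 891 miRNA names in the tables and of 499 rat-named ones. The astrocytes came from neonatal wild-type rats. They were given 1 of 2 treatments from day 6 of culture, lasting 24 h, or were left untreated. IL-1α/TNF-α/C1q, called the inflammatory mixture below, joins interleukin and tumour necrosis factor cytokines to the complement protein C1q. IL-4/C1q joins interleukin 4 to the same complement protein. C1q was thus shared by both treated groups and absent from the untreated one. There was 1 library per group, all labelled as a single batch, with 12327301 miRNA counts after the inflammatory mixture, 7779718 after IL-4/C1q and 6318839 in the untreated library. One sentence of the labels' protocol has the RNA taken from the treated astrocytes themselves, which leaves the EV source uncertain. The number of animals behind a library is not given in the sources used here.

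NF-kB is the transcription factor through which IL-1 and TNF receptors switch on inflammatory genes. It also drives transcription of miR-146a and miR-155, which then act back on the pathway in opposite ways. miR-146a and miR-146b repress the adaptor proteins TRAF6 and IRAK1 and so damp the signal, whereas miR-155 represses the inhibitors SOCS1 and SHIP1 and so tends to prolong it. miR-147 is induced by Toll-like receptor signals in mouse macrophages and limits their cytokine output. In human astrocytes, miR-146a and miR-155 are known to be induced by IL-1β.

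The mature sequences, taken from RefSeq (GRCr8), are shown because they tell which members can be expected to read the same target sites and which arms come from a shared hairpin. All 6 members matched an entry. Capitals mark the seed, bases 2 to 8, which pairs with targets.
rno-miR-146a-5p: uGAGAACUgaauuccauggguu
rno-miR-146b-5p: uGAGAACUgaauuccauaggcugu
rno-miR-155-5p: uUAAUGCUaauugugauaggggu
rno-miR-147: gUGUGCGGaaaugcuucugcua
rno-miR-146a-3p: aCCUGUGAaguucaguucuuu
rno-miR-146b-3p: cCUAGGGAcucaguucuggug

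miR-146a-5p and miR-146b-5p share the seed GAGAACU, which no other of the 693 mature rat names in the RefSeq table carried. From miR-146a-5p to miR-146b-5p the bases differ as G18A and U21C, counted from 1 at the 5′ end, and miR-146b-5p runs 2 bases longer. The seeds of miR-155-5p, miR-147 and both 3p arms were each carried by no other name in that table. The paralogs lie on different chromosomes: miR-146a-5p at chr10:28350053-28350074 on the minus strand, inside the long non-coding RNA gene LOC134480673, and miR-146b-5p at chr1:255144874-255144897 on the plus strand, inside C1h10orf95. miR-155-5p lies at chr11:37261117-37261139 on the plus strand within its host RNA gene Mir155hg, and miR-147 at chr3:130176322-130176343 on the plus strand within C3h15orf48. Exons and introns were not examined, and the build behind the deposited tables is not given in the sources used here.

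Each member had exactly 1 row in the tables. The rows of miR-146b-3p and miR-147 carried the suffixes L+1 and R-1, and the others the plain name. Read as 1 base added at the 5′ end and 1 base missing at the 3′ end, a reading that the files do not spell out, these forms are as follows in the RefSeq hairpins. They are shown because an added 5′ base moves the seed.
rno-miR-146b-3p, L+1 form: cCCUAGGGacucaguucuggug
rno-miR-147, R-1 form: gUGUGCGGaaaugcuucugcu
The L+1 form of miR-146b-3p has the seed CCUAGGG in place of CUAGGGA, and the R-1 form of miR-147 keeps its seed.

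Levels are given as CPM, a count scaled so that the miRNA-named counts of a library sum to 1000000. Together the members held 1003 CPM after the inflammatory mixture, 809.9 CPM after IL-4/C1q and 1026 CPM in the untreated library. miR-21-5p alone held 36.5%, 38.7% and 35.8% of the counts in the same order. Mature miRNAs have nearly equal lengths and each read stands for a whole molecule, so counts were not divided by length. How strongly ligation and amplification favour one miRNA over another was not tested. With 1 library per group, no difference below has a replicate check. Every ratio compares libraries rather than conditions, its 95% interval covers counting error only, and no p-value is given. PCR copies are not independent molecules.

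The untreated library, the base of every ratio to untreated, stood apart from both treated ones in miRNAs of other cells. All 6 tested of 7 epithelial miRNAs were lower in both treated libraries by the rule of size given below. By that rule 21.2% of all tested miRNAs were lower after the inflammatory mixture and 23.2% after IL-4/C1q. The summed epithelial levels were 115 CPM after the inflammatory mixture, 102 CPM after IL-4/C1q and 3471 CPM untreated. miR-141-3p was at 0 in both treated libraries. All 5 erythrocyte and serum miRNAs were lower in both by the same rule, with summed levels of 1054, 1386 and 8847 CPM in the same order. Of these, miR-144-3p was at 0 after the inflammatory mixture. The direct comparison of the treated libraries does not use the untreated one.

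**Figure D1:**
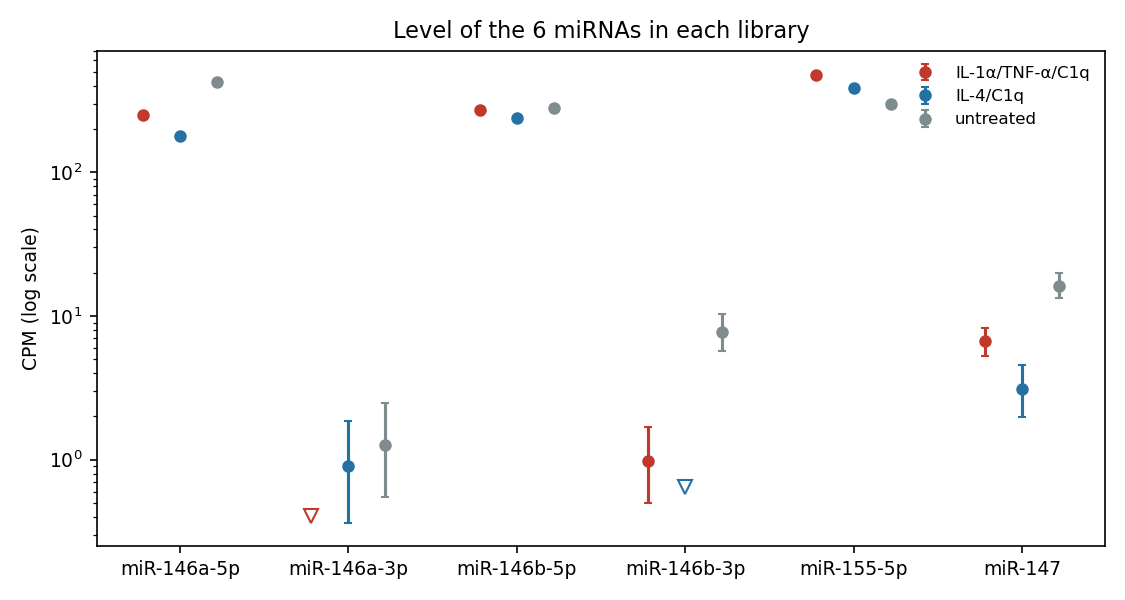
Level of each of the 6 miRNAs in CPM (log axis) in the inflammatory mixture (IL-1α/TNF-α/C1q), IL-4/C1q and untreated libraries, 1 point per library. Bars are exact Poisson 95% intervals, and open triangles stand for a count of 0 drawn at the floor of 5 counts. miR-155-5p was highest in the inflammatory mixture library, and miR-146a-5p, miR-146b-3p and miR-147 in the untreated one. The intervals of miR-146b-5p overlap between those libraries, and miR-146a-3p had at most 8 counts.

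In percentage points, the members' shares differed most between libraries for miR-155-5p, the signal-prolonging member, and miR-146a-5p, a signal-damping one. miR-155-5p had the largest share of the members' counts in both treated libraries, and miR-146a-5p in the untreated one. miR-155-5p made up 47.5% of the members' counts after the inflammatory mixture (Clopper-Pearson 95% interval 46.6 to 48.4%), 48.0% after IL-4/C1q (46.8 to 49.3%) and 29.0% in the untreated library (27.9 to 30.2%). miR-146a-5p made up 24.9% (24.2 to 25.7%), 22.1% (21.1 to 23.2%) and 41.1% (39.9 to 42.3%). The share of miR-146b-5p stayed between 26.8% and 29.4% across the 3 libraries. As a ratio within a library, which no scaling can alter, there were 1.90 counts of miR-155-5p for each of miR-146a-5p after the inflammatory mixture (1.82 to 1.99), 2.17 after IL-4/C1q (2.04 to 2.31) and 0.707 in the untreated library (0.666 to 0.750). The intervals of the treated libraries do not reach that of the untreated one, which is the shared base of both differences. Neither part was rare. Of all tested miRNAs, 23.2% had a higher ratio to untreated than miR-155-5p after the inflammatory mixture and 28.0% after IL-4/C1q. Ratios below that of miR-146a-5p were held by 25.3% and 19.5%. How often a pair of miRNAs differs this much was not tested.

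**Figure D2:**
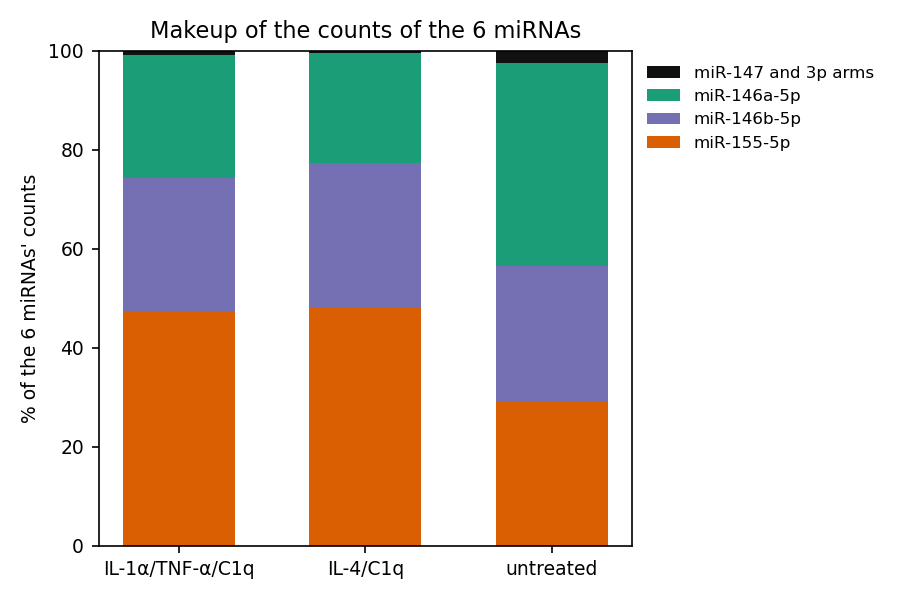
Share of each member in the summed counts of the 6 miRNAs, as stacked bars, for the inflammatory mixture (IL-1α/TNF-α/C1q), IL-4/C1q and untreated libraries. miR-155-5p takes 47.5%, 48.0% and 29.0%, and miR-146a-5p takes 24.9%, 22.1% and 41.1%.

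Differences were read against a rule of size: the levels had to differ 2-fold or more, the interval had to exclude 1 and the higher library needed 50 counts or more. Only miR-146a-5p, miR-146b-5p, miR-155-5p and miR-147 had 50 counts in any library. miR-146b-3p, with 49 counts at most, and miR-146a-3p, with 8, were too low to be called. After the inflammatory mixture, 0 of these 4 were past the rule as higher, where 13.7% of all 505 tested miRNAs were, and 1 as lower, where 21.2% were. With a 1.5-fold minimum in that comparison, 1 member was higher (25.7% of all tested miRNAs) and 2 lower (28.7%). After IL-4/C1q, 0 were past the 2-fold rule as higher (13.3% of 482 tested) and 2 as lower (23.2%). Both comparisons use the same untreated library, so their values are given side by side and are not independent of each other.

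Of the damping pair, miR-146a-5p was lower in both treated libraries. It had 3084 counts or 250.2 CPM after the inflammatory mixture, 1394 counts or 179 CPM after IL-4/C1q, and 2666 counts or 422 CPM in the untreated library. The level was 2.35-fold lower after IL-4/C1q than untreated (2.21 to 2.51), past the rule, and 1.69-fold lower after the inflammatory mixture (1.60 to 1.78), short of it. Among all tested miRNAs, 19.5% had a lower ratio after IL-4/C1q and 25.3% after the inflammatory mixture, so miR-146a-5p stood in the lower part of both distributions without lying at their end.

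Its seed partner miR-146b-5p differed less. It had 269 CPM after the inflammatory mixture, 238 CPM after IL-4/C1q and 281 CPM in the untreated library. Its ratio to untreated was 0.958 after the inflammatory mixture (0.904 to 1.02), an interval that includes 1, and 0.847 after IL-4/C1q (0.793 to 0.904). The log2 ratio after the inflammatory mixture, −0.06, was also the median of all 505 tested miRNAs. That value changed sign with TMM factors (0.014), with DESeq2 size factors (0.04) and with the authors' normalized column (0.03). After IL-4/C1q the log2 ratio was −0.24, and its interval came to include 0 with DESeq2 size factors (−0.07, −0.17 to 0.02) and with the authors' normalized column (−0.07, −0.17 to 0.02). Within each library, miR-146b-5p was the more abundant of the pair in both treated libraries and the less abundant in the untreated one. There were 1.08 counts of miR-146b-5p for each of miR-146a-5p after the inflammatory mixture (1.02 to 1.13), 1.33 after IL-4/C1q (1.24 to 1.42) and 0.666 in the untreated library (0.627 to 0.708).

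A further row belongs beside miR-146a-5p. The bovine-named row bta-miR-146a with the suffix R-1 and a tag of 2 substitutions, A18G and G23T, had 84 counts or 6.81 CPM after the inflammatory mixture, 114 counts or 14.7 CPM after IL-4/C1q and 277 counts or 43.8 CPM in the untreated library. The base that A18G leads to is the one rat miR-146a-5p carries at position 18, and G23T lies past the 22 bases of that miRNA. Relative to untreated the row was 6.43-fold lower with the inflammatory mixture (5.02 to 8.31), and the IL-4/C1q library had a 2.99-fold lower level (2.40 to 3.75). Most other bovine-named miRNAs were also lower: 24 of 28 tested were lower by the rule of size and 1 higher after the inflammatory mixture, with a median log2 ratio of −3.09. In the IL-4/C1q library 24 of 27 were lower and 0 higher, and the median log2 ratio was −2.67. Over all tested miRNAs, 21.2% were lower and 13.7% higher after the inflammatory mixture, and 23.2% and 13.3% after IL-4/C1q. The name shows which database entry the reads were assigned to, not the organism they came from. Adding the bovine-named rows to miR-146a-5p gave log2 ratios of −0.86 after the inflammatory mixture and −1.27 after IL-4/C1q, against −0.75 and −1.24 without them. The other bovine-named miR-146a row, R-2, had 0, 0 and 4 counts after the inflammatory mixture, after IL-4/C1q and untreated.

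The signal-prolonging member miR-155-5p was the only member with a higher CPM after both treatments than untreated. It had 5874 counts or 477 CPM after the inflammatory mixture, 3025 counts or 389 CPM after IL-4/C1q and 1884 counts or 298 CPM in the untreated library. The ratio to untreated was 1.60 after the inflammatory mixture (1.52 to 1.68) and 1.30 after IL-4/C1q (1.23 to 1.38). Both intervals exclude 1 and both ratios fall short of 2-fold. Such values were common in these libraries: 23.2% of all tested miRNAs had a higher ratio after the inflammatory mixture and 28.0% after IL-4/C1q. miR-155-5p ranked 88 among rat-named miRNAs after the inflammatory mixture, 96 after IL-4/C1q and 114 in the untreated library.

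miR-147, the member of lowest abundance to reach 50 counts, was lower in both treated libraries and past the rule in both. It had 82 counts or 6.65 CPM after the inflammatory mixture, 24 counts or 3.08 CPM after IL-4/C1q and 103 counts or 16.3 CPM in the untreated library. The 95% intervals of the 3 levels, 5.29 to 8.26, 1.98 to 4.59 and 13.3 to 19.8 CPM, do not overlap. Against untreated, it was 2.45-fold lower with the inflammatory mixture (1.82 to 3.32). The difference was 5.28-fold with IL-4/C1q (3.36 to 8.62), also lower. Of all tested miRNAs, 18.8% had a lower ratio in the first comparison and 13.1% in the second.

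**Figure D3:**
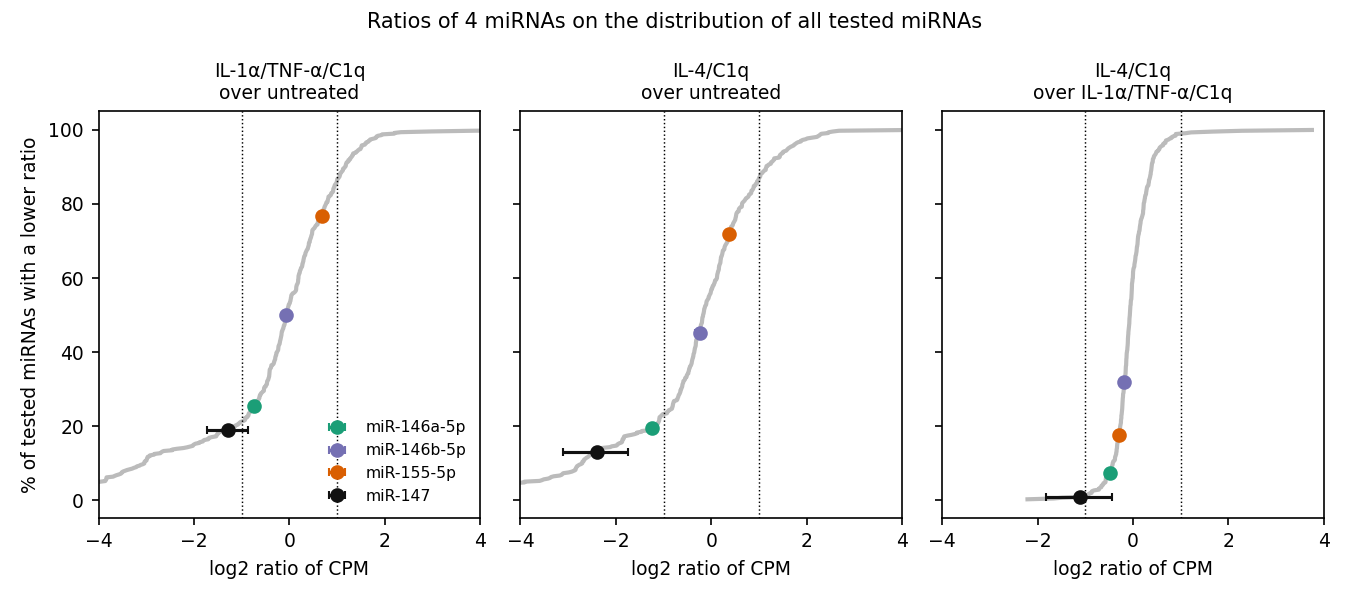
Log2 ratio of CPM (x axis) and the percentage of all tested miRNAs with a lower ratio (y axis) for the inflammatory mixture (IL-1α/TNF-α/C1q) over untreated, IL-4/C1q over untreated and IL-4/C1q over the inflammatory mixture. The grey line is the distribution of all tested miRNAs, points are the 4 members with at least 50 counts with 95% counting intervals, and dotted lines mark 2-fold. miR-147 lies left of the 2-fold line in all 3 panels, and miR-146a-5p in the middle one.

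Set directly against the inflammatory mixture, the IL-4/C1q library was lower in all 4 members that had at least 50 counts, with every interval below 1. Of all 459 tested miRNAs, 37% also had an interval below 1. Only miR-147 was past the rule, as 1 lower member, where 1.09% of tested miRNAs were lower by the rule and 1.09% higher. miR-147 was 2.16-fold lower after IL-4/C1q (1.35 to 3.55), and 0.871% of tested miRNAs had a lower ratio. This value rests on 24 counts against 82. miR-146a-5p was 1.40-fold lower (1.31 to 1.49), with 7.41% of tested miRNAs below it. The substituted bovine-named miR-146a row went the other way, 2.15-fold higher after IL-4/C1q (1.61 to 2.89), on 114 against 84 counts. With the bovine-named rows added, the log2 ratio of miR-146a-5p was −0.41 in place of −0.48. miR-155-5p was 1.23-fold lower (1.17 to 1.28) and miR-146b-5p 1.13-fold lower (1.07 to 1.198). Over all tested miRNAs the median log2 ratio in this comparison was −0.06.

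The hairpins of miR-146a and miR-146b also showed how their arms were balanced. They are printed with both mature arms in capitals, 5p first, because the 3p arms are the passenger strands that are mostly discarded when the 5p arm is loaded.
Mir146a, chr10:28349996-28350090, minus strand: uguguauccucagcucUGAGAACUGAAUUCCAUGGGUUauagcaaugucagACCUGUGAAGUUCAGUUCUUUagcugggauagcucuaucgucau
Mir146b, chr1:255144860-255144947, plus strand: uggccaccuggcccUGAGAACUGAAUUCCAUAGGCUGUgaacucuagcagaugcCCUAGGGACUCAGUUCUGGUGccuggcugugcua

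The 3p arm of miR-146b made up a smaller share of the hairpin's counts in the treated libraries. There were 12 counts of miR-146b-3p among 3330 of both arms after the inflammatory mixture, a 3p share of 0.360% (exact interval 0.186 to 0.629%). After IL-4/C1q there were 0 among 1851, and in the untreated library 49 among 1825, or 2.68% (1.99 to 3.53%). Fewer rows of the tables hold 3 or 4 counts than hold 5. A listed 0 was therefore read as up to 5 counts, which allows a share of up to 0.270% after IL-4/C1q. As a level, miR-146b-3p was 7.97-fold lower after the inflammatory mixture than untreated (4.18 to 16.5), at 0.973 against 7.75 CPM. After IL-4/C1q it was 12.1-fold lower with its listed 0 set to a floor of 5 counts, a value that leaves out counting error.

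This shift was placed among 96 rat-named hairpins, miR-146b included, whose arms together had at least 500 counts in every library. Counts under 5 were set to 5. This limits how far down a pair can shift when its minor arm is rare in the untreated library. How many of the 96 it kept from a lower shift was not counted. The log2 ratio of the less abundant arm over the other shifted by −2.93 after the inflammatory mixture and by −3.35, with the listed 0 at 5 counts, after IL-4/C1q for miR-146b, and 0 of the 96 pairs had a lower shift in either comparison. The median shift of all pairs was −0.09 and −0.13, and their 5th percentiles were −1.72 and −1.62. Of the pairs under the minimum of 500 counts, miR-33 and miR-673 had lower shifts after the inflammatory mixture, −3.28 and −3.08. They rest on 55 and 20 counts of both arms in the untreated library. The comparison was made after the values were seen and has no test, and no other minimum was tried. miR-146a-3p, the passenger of the other hairpin, had 0, 7 and 8 counts after the inflammatory mixture, after IL-4/C1q and untreated. Its share was at most 0.162%, 0.500% (0.201 to 1.03%) and 0.299% (0.129 to 0.589%) in the same order. The bound after the inflammatory mixture carries no counting error, so it cannot be set against the interval after IL-4/C1q. The counts of 0 and 7 are too low to tell these libraries apart on this share.

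**Figure D4:**
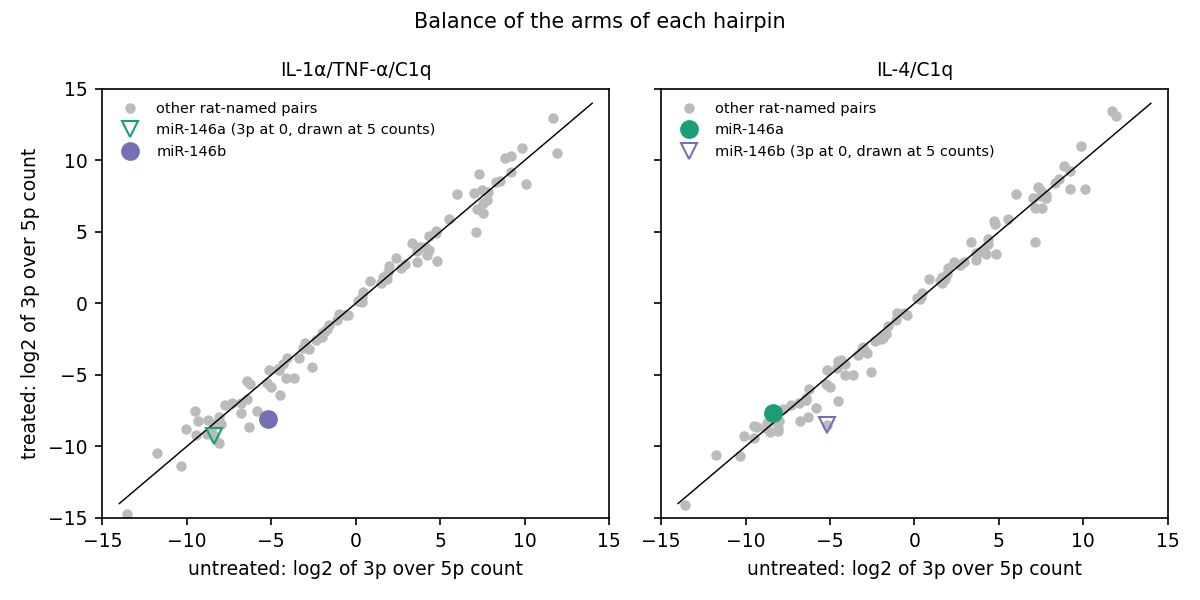
Log2 ratio of the 3p over the 5p count in the untreated library (x axis) and in each treated library (y axis; left, inflammatory mixture; right, IL-4/C1q) for 96 rat-named hairpins. The line marks equal balance and triangles mark a 3p count of 0 drawn at 5 counts. miR-146b lies below the line in both panels, with a shift of −2.93 after the inflammatory mixture and −3.35 after IL-4/C1q.

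Of 332 rat-named miRNAs with at least 200 counts in all, the 3 with the pair of log2 ratios to untreated closest to that of each member were noted, a description over 3 libraries. The closest to miR-155-5p were miR-222-3p, miR-222-5p and miR-298-3p, at distances of 0.03, 0.03 and 0.09 log2 units. miR-222-3p had log2 ratios of 0.69 after the inflammatory mixture and 0.41 after IL-4/C1q, against 0.68 and 0.38 for miR-155-5p, at a level of 5891, 4829 and 3642 CPM after the inflammatory mixture, after IL-4/C1q and untreated. The closest to miR-146a-5p were miR-877, miR-3068-5p and miR-9a-3p, at 0.17 to 0.18, of which miR-9a-3p is a neural lineage miRNA and had 3557, 3042 and 6470 CPM in that order. The closest to miR-146b-5p were miR-676, miR-384-5p and miR-3473, at 0.02 to 0.05. The nearest to miR-147, miR-203a-3p, miR-206-3p and miR-3099, lay farther off, at 0.62 to 0.68. Counting error of miR-147 is wide here, with log2 intervals of −1.73 to −0.86 after the inflammatory mixture and −3.11 to −1.75 after IL-4/C1q. The log2 ratios of all 3 neighbours lay inside these intervals, so the distances do not show a separate pattern for miR-147.

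Among 16 other miRNAs listed as responsive to NF-kB, IL-1 or TNF, 1 was higher and 1 lower after the inflammatory mixture, and 1 higher and 2 lower after IL-4/C1q. Of all tested miRNAs, 13.7% were higher and 21.2% lower after the inflammatory mixture, and 13.3% higher and 23.2% lower after IL-4/C1q. The list's median log2 ratios were 0.27 and 0.18, against −0.06 and −0.17 over all tested miRNAs. The higher one in both was miR-132-5p, the minor arm of a CREB-responsive hairpin, with ratios of 2.73 (1.70 to 4.59) and 2.05 (1.22 to 3.58). It had 112, 53 and 21 counts after the inflammatory mixture, after IL-4/C1q and untreated. The major arm, miR-132-3p, had ratios of 1.18 and 1.12. The lower ones were miR-31a-3p in both, 2.82-fold (1.83 to 4.39) and 3.56-fold (2.08 to 6.36), and miR-9a-3p after IL-4/C1q, 2.13-fold (2.09 to 2.16). miR-31a-3p had 38, 19 and 55 counts in the same order of libraries. Its major arm, miR-31a-5p, went the other way, with ratios of 1.33 and 1.42. The most abundant of the list, miR-21-5p, miR-9a-5p and miR-221-3p, had log2 ratios of 0.03, −0.47 and 0.47 after the inflammatory mixture and of 0.11, −0.40 and 0.32 after IL-4/C1q. In the direct comparison of IL-4/C1q with the inflammatory mixture, 0 of the 15 tested were past the rule.

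Of 12 miRNAs listed as known to target genes of the NF-kB pathway, 10 had a rat-named row, and the counts below cover these 10. The listed miR-223-3p had a mouse-named row that they leave out. That row had 28 counts or 2.27 CPM after the inflammatory mixture, 238 counts or 30.6 CPM after IL-4/C1q and 368 counts or 58.2 CPM untreated. In each comparison with untreated, 1 was higher and 2 were lower, and the direct comparison had none past the rule. The shares over all tested miRNAs were 13.7% higher and 21.2% lower after the inflammatory mixture, and 13.3% and 23.2% after IL-4/C1q. In the direct comparison they were 1.09% each way. The counts of these 10 thus do not set them apart from all tested miRNAs, with the mouse-named miR-223-3p row left out. miR-199a-5p, which represses the kinase IKKβ in human cells, was 2.99-fold higher after the inflammatory mixture (2.92 to 3.06) and 3.95-fold higher after IL-4/C1q (3.85 to 4.05). miR-10a-5p, which damps NF-kB signalling in human endothelial cells, was 12.3-fold lower (11.4 to 13.4) and 9.85-fold lower (9.02 to 10.8). miR-124-3p, a neuronal miRNA, was 3.91-fold lower (3.41 to 4.50) and 3.56-fold lower (3.04 to 4.18). The median log2 ratios of the list, −0.10 and −0.11, lay within 0.1 of those of all tested miRNAs. The most abundant members, miR-125b-5p, miR-125a-5p and miR-181a-5p, had log2 ratios of −0.23, 0.22 and −0.86 after the inflammatory mixture.

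Markers of the labelled cells and of other cells were summed in each library. All 8 listed glial miRNAs had rows, with summed levels of 501542 CPM after the inflammatory mixture, 519527 after IL-4/C1q and 529771 untreated. Most of each sum was miR-21-5p, with 365214, 386922 and 357921 CPM in that order. Every other listed glial miRNA was below its untreated level in both treated libraries. The list's median log2 ratios were −0.33 and −0.36, against −0.06 and −0.17 over all tested miRNAs. The 4 neuronal miRNAs summed to 4823, 4574 and 8298 CPM, with miR-124-3p lower by the rule in both comparisons and miR-129-5p after IL-4/C1q. miR-138-5p went the other way, short of the rule and at low levels of 8.27, 6.56 and 4.91 CPM. Its ratio to untreated was 1.69 after the inflammatory mixture (1.12 to 2.61) and 1.34 after IL-4/C1q (0.839 to 2.16). miR-155 and miR-146a are abundant in leukocytes, and 4 of 7 leukocyte miRNAs had a rat-named row, summing to 219, 204 and 163 CPM, most of it miR-342-3p. With 8 further rows of those miRNAs under other names or arms, chosen after their values were seen, the sums were 235, 273 and 349 CPM. Among these, mmu-miR-223-3p had 2.27, 30.6 and 58.2 CPM and cpo-miR-142-5p 6.49, 31.6 and 114.7 CPM. The part of these cells, and of the epithelial, erythroid and serum miRNAs above, in the lower levels of miR-146a-5p, miR-146b-3p and miR-147 was not tested. Fewer cells of a type and less RNA released per cell cannot be told apart in such libraries.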

How the data were processed

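Small RNA was sequenced on an Illumina platform per the labels' protocols; the sources used here do not give the aligner, counter, miRNA database or genome build. The deposited tables, 1480 rows per library, hold an estimated count per row, called raw per the file headers, and a signal column, called normalized per the file headers, which equals the estimated count times a constant of 0.684, 1.14 and 1.25 in the IL-1α/TNF-α/C1q, IL-4/C1q and untreated libraries. How the authors set that constant is not stated. Estimated counts were fractional in 140, 151 and 237 rows (tolerance 1e-06), where reads were divided among rows, and were rounded for intervals and scaling factors. The members' counts were whole.

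Predicted candidates (372 rows, at most 0.0662% of counts) were left out. Rows were summed by the part of the name that precedes the first suffix and divided by the library's total. Ratios carry exact conditional binomial 95% intervals, computed with scipy 1.17.1 and tested on simulated data. A listed 0 was set to a floor of 5 counts, chosen after the values were seen. In the order above, 69, 51 and 118 rows hold 5 counts, 6, 4 and 12 hold 4, and 13, 9 and 25 hold 3. Alternatives used TMM factors from edgeR 4.0.16, size factors from DESeq2 1.42.0, and other totals, rows and minimums. No test across samples was possible with 1 library per group. The members, lists and rules were chosen with earlier results of these data known. Named miRNAs are the members, their relatives under other species names, the 3 nearest patterns per member, and list members that were past the rule or among the 3 most abundant. The major arms of miR-132 and miR-31a and the mouse-named miR-223-3p row are named besides. For the cell marker lists, sums stand in place of most names.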

Additional observations from a re-analysis of the deposited data

How the results depend on the processing

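Every change in the number of members past the rule of size came from its own limits. With a 1.5-fold minimum, 1 member was higher (miR-155-5p) and 2 lower (miR-146a-5p and miR-147) after the inflammatory mixture, in place of 0 and 1. With no count minimum, 3 were lower after the inflammatory mixture (35.2% of all tested miRNAs) and 3 after IL-4/C1q (35.4%), and in the direct comparison 1 was higher (5.39%) and 2 lower (3.70%) after IL-4/C1q; the added ones, miR-146a-3p and miR-146b-3p, rest on at most 49 counts. With a minimum of 200 counts, miR-147 was no longer tested, which left 0 lower after the inflammatory mixture (17.0% of all tested miRNAs), 1 after IL-4/C1q (18.8%) and 0 in the direct comparison (0%). Other scalings, the highest row of a name, leaving out substitution-tagged rows and adding other species' rows left all these counts as they were. The number of members with an interval below 1 after IL-4/C1q was 2 in place of 3 with DESeq2 size factors and with the authors' normalized column, miR-146b-5p being the one that differed. TMM factors, DESeq2 size factors and the authors' normalized column moved the median over all tested miRNAs, for the log2 ratio of IL-4/C1q over untreated, by 0.13, 0.17 and 0.17. Across the 9 settings that change a ratio, miR-146a-5p ranged from −0.86 to −0.65 after the inflammatory mixture and from −1.27 to −1.07 after IL-4/C1q, miR-155-5p from 0.66 to 0.78 and from 0.36 to 0.55, and miR-147 from −1.31 to −1.19 and from −2.42 to −2.23. miR-146b-5p after the inflammatory mixture ranged from −0.08 to 0.04. Depth limits the 3p arms and miR-147, whose lowest counts were 0 and 24.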
